A study of Mus musculus with 6 samples.

Results

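The small leucine-rich proteoglycans are secreted matrix proteins, and 9 of their genes were followed here in the aging cochlear lateral wall: Aspn (asporin), Ogn (osteoglycin), Dcn (decorin), Bgn (biglycan), Lum (lumican), Fmod (fibromodulin), Prelp, Omd (osteomodulin) and Podn (podocan). The members were all probe sets on the array whose only annotated symbol was 1 of these 9, which gave 20 probe sets of 45037. A probe set is a group of short probes designed against 1 transcript, and a gene is represented below by its brightest probe set over the 6 arrays, and for the 9 members every other probe set is given beside it. The tissue came from CBA/CaJ mice of both sexes, an inbred strain with no engineered allele and no treatment in the labels. The YoungAdult group was 1 to 3 months old and the OldAdult group 1.5 years old, with 3 Affymetrix arrays per age. Whether a sample pooled several mice, and the sex of each sample, are not given in the sources used here, so every p-value measures the spread among these samples. Signals are on the log2 scale, where a difference of 1 is a doubling, and differences are old minus young throughout. Means carry the SD over n = 3 arrays, and differences the standard error of limma's linear model. A probe set was called when its p-value was under 0.05 after Benjamini-Hochberg adjustment across the 45037 probe sets.

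These proteins have a curved core of leucine-rich repeats, and most of them carry chondroitin, dermatan or keratan sulfate chains or sulfated tyrosines. They bind collagen fibrils and set fibril diameter and spacing, and several also bind growth factors of the TGF-beta family and innate immune receptors. The spiral ligament, which makes up most of the lateral wall, is a fibrocyte tissue rich in collagen that is anchored to the bone of the otic capsule. The family is divided into classes by protein sequence. Aspn, Dcn and Bgn belong to class I, Omd, Fmod, Lum and Prelp to class II, Ogn to class III and Podn to class V.

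The tissue label was checked against marker genes. The 10 spiral ligament fibrocyte markers, which include Coch and Otos, had summed log2 signals of 16.93 to 16.95 on the young arrays and 16.89 to 16.94 on the old arrays, and 0 of them were called. That sum is dominated by genes near the top of the scale, such as Coch at 14.44 ± 0.01 and 14.37 ± 0.02 where the highest value on any array was 14.76, so a change there may be understated. Of the 10 markers of the stria vascularis, the ion-pumping epithelium of this tissue, 0 were called, and their summed signal ranged from 15.63 to 15.76 on young and from 15.75 to 15.83 on old arrays. At an unadjusted limma p under 0.05, 1 fibrocyte marker was lower, and 2 stria markers were higher. Of all 18193 genes, 1315 were lower and 2447 higher at that threshold. The array medians of the log2 signal lay between 6.26 and 6.30. Young array 2 stood apart in 1 respect: Xist, the transcript of the inactive X chromosome, read 6.06 there and 11.95 to 12.65 on the other arrays. The 3′ minus 5′ signal of the Gapdh control probe sets, a measure of RNA integrity, ranged from 1.07 to 1.25 on the young arrays and from 1.26 to 1.45 on the old arrays (exact permutation p = 0.1, the smallest that 3 against 3 can give). For beta-actin these ranges overlapped, at 1.46 to 1.60 and 1.39 to 1.84. The part that this difference in 3′ bias plays in the results below was not tested.

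Omd, Aspn and Ogn fell with age, and the other 6 genes were not called. All 3 lie side by side on chromosome 13. The 3 of 9 that fell stand beside 2.33% of all 18193 genes, and 0 of the 9 were called higher, beside 2.45% of all genes. Over the probe sets, 4 of 20 were called lower and 1 higher, against 2.84% and 1.86% of all probe sets. The median difference of the 9 genes was -0.31, and that of all genes was 0.03. In 5 of the 9 genes all 3 old arrays lay below all 3 young arrays, as in 9.70% of all genes. A lower signal in whole tissue can come from fewer cells of a type or from less RNA per cell, which cannot be told apart here.

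**Figure D1:**
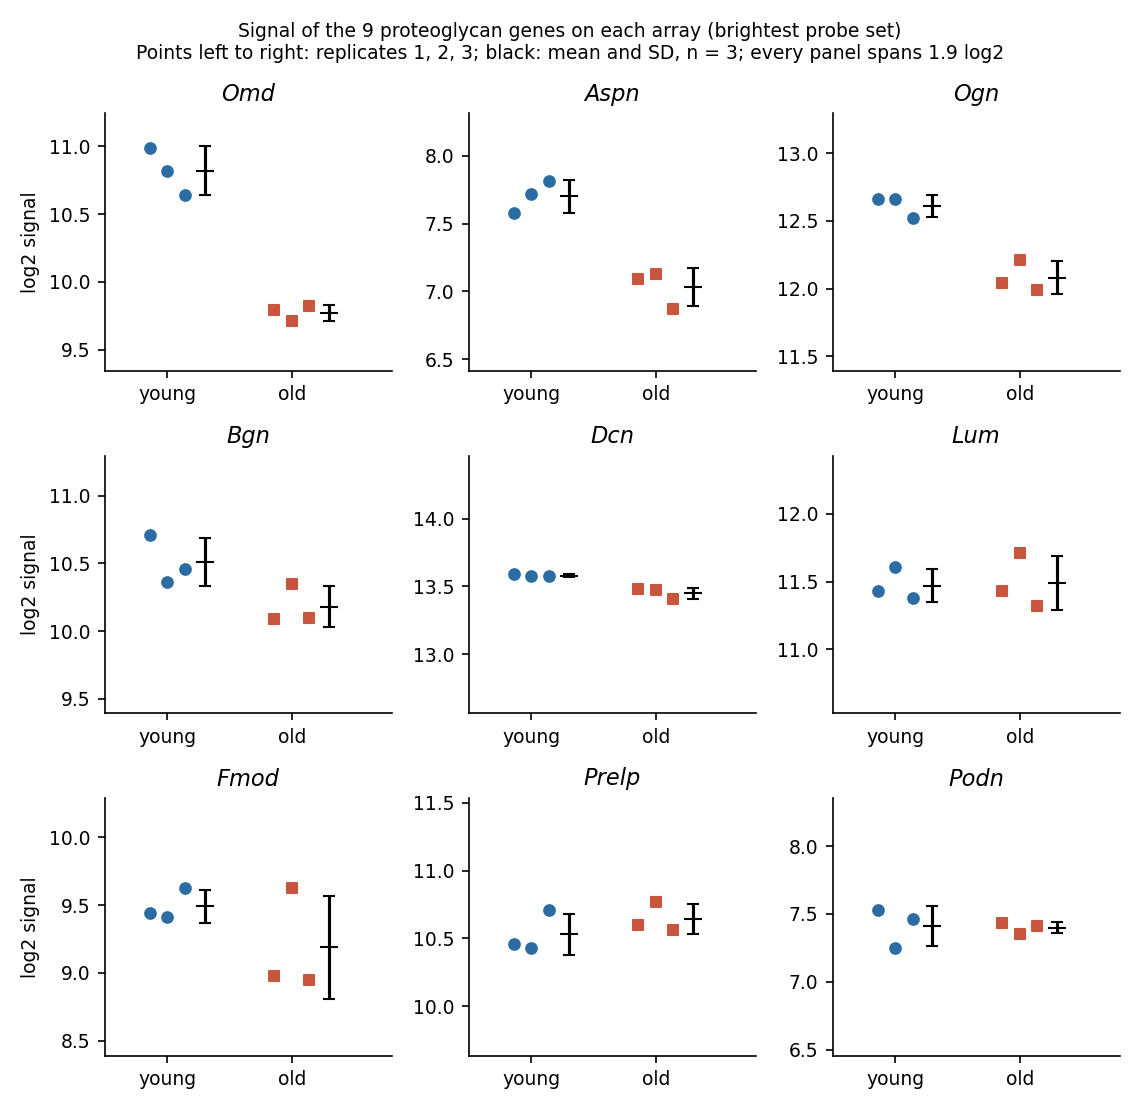
Log2 signal of each proteoglycan gene on each array, from its brightest probe set, with young samples as blue circles, old samples as red squares, and the mean and SD of n = 3 in black. The groups are separated in Omd, Aspn, Ogn, Dcn and Bgn, although in Bgn by only 0.01 log2, and they overlap in Lum, Fmod, Prelp and Podn.

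Omd encodes osteomodulin, also called osteoadherin, a keratan sulfate proteoglycan of mineralized tissue that binds collagen. Its probe set 1418745_at read 10.99, 10.82 and 10.64 on young arrays 1, 2 and 3, and 9.79, 9.71 and 9.82 on old arrays 1, 2 and 3. The lowest young array was thus 0.82 above the highest old array. The mean went from 10.82 ± 0.18 to 9.77 ± 0.06, a difference of -1.04 ± 0.10 (95% confidence interval -1.27 to -0.81, limma adjusted p = 0.0023). Young samples held 2.06-fold the signal of old samples. The call held under all 15 other settings tried, including each array left out in turn, with differences from -1.13 to -0.96.

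Aspn encodes asporin, which differs from decorin and biglycan in having a stretch of aspartic acids and no glycosaminoglycan attachment site, and which binds collagen and TGF-beta. Its brighter probe set, 1448421_s_at, read 7.58, 7.72 and 7.81 in young samples and 7.09, 7.13 and 6.87 in old samples. The groups were 0.45 apart. The difference was -0.67 ± 0.10, from 7.70 ± 0.12 to 7.03 ± 0.14, or 1.59-fold (limma adjusted p = 0.0108). Without young array 3 or old array 3 the call was lost, at adjusted p = 0.0545 and 0.0517, with differences of -0.62 and -0.59. The second Aspn probe set, 1416652_at, read 7.38, 7.28 and 7.03 in young and 7.0, 6.90 and 6.95 in old samples. Its groups were 0.03 apart, and its difference of -0.28 ± 0.10 was not called (adjusted p = 0.175). The mean of both Aspn probe sets had a difference of -0.48 and was called, at an adjusted p of 0.00809 over genes. The suffix s marks probe sets whose probes can match several transcripts, which applies to the brighter of the 2. From young array 1 to 3 the 2 probe sets ran in opposite order, and which of them follows the asporin message was not settled.

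Ogn encodes osteoglycin, also called mimecan, a keratan sulfate proteoglycan of bone, cornea and vessel wall. Both of its probe sets were called. The brighter probe set, 1419663_at, read 12.66, 12.66 and 12.52 in young samples and 12.04, 12.21 and 11.99 in old samples. Its groups were 0.31 apart, with means of 12.61 ± 0.08 and 12.08 ± 0.12, a difference of -0.53 ± 0.09 and a 1.45-fold higher signal in young samples (limma adjusted p = 0.0169). The second probe set, 1419662_at, read 11.11, 11.02 and 10.72 in young samples and 10.22, 10.21 and 9.91 in old samples. It moved by -0.84 ± 0.13, or 1.79-fold (limma adjusted p = 0.0117). The call of the brighter probe set was lost without young array 1, old array 1 or old array 3, at adjusted p = 0.0518, 0.0589 and 0.0899, with differences of -0.51 to -0.49. That of the second was lost without old array 3 (-0.74, adjusted p = 0.0507). Without young array 2, the array low in Xist, Omd, Aspn and Ogn differed by -1.04, -0.66 and -0.51 and all 3 stayed past the threshold.

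Because these 3 neighbours were all lower in old samples, the 250 bases before their annotated starts are shown from RefSeq's mouse table (GRCm38.p6), with those of Bgn, a class I member that was not called, for contrast. Of the 9 genes 7 had such a window. Each is written 5′ to 3′ in the direction of transcription, and capitals mark the motifs searched on both strands: the TATA box TATAAA, the CCAAT box, the GC box GGGCGG and the AP-1 site TGANTCA.
Omd, chr13:49582212-49582461, + strand: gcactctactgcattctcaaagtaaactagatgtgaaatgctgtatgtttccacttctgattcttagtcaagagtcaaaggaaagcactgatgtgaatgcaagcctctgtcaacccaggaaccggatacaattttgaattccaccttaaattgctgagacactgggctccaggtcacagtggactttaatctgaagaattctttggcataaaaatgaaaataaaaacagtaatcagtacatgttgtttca
Aspn, chr13:49544193-49544442, + strand: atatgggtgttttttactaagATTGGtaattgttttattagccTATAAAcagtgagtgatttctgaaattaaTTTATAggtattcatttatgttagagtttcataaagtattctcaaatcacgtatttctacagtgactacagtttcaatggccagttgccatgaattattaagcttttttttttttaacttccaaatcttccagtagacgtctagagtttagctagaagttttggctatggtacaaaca
Ogn, chr13:49607765-49608014, + strand: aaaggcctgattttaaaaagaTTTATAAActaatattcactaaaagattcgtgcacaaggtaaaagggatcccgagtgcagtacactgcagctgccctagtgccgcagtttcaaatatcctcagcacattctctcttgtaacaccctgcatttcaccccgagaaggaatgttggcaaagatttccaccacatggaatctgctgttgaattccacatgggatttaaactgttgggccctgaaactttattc
Bgn, chrX:73483351-73483600, + strand: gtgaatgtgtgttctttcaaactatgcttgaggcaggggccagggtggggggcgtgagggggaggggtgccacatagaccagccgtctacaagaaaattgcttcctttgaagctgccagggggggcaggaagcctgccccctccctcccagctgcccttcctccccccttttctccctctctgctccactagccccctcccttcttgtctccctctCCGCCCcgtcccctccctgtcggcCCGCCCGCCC

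The 3 windows on chromosome 13 were poor in GC, at 38.4% for Omd, 30.0% for Aspn and 42.0% for Ogn, with 1, 2 and 4 CpG dinucleotides. The median of all 32851 windows was 52.4% GC and 6 CpG. That of Bgn held 64.4% GC, 7 CpG and 3 copies of the GC box read on the other strand (CCGCCC), the last of which ends 1 base before the start and overlaps the one before it. GC boxes were in 32.7% of all windows. Of the other uncalled members with a window, Fmod held 51.2% GC and 2 CpG, and Prelp 55.6% and 5. The 2 Podn windows held 78.0% and 64.0% GC, with 32 and 7 CpG. A low CpG count was thus not limited to the 3 genes that fell. The Aspn window held TATAAA at position -207 and its reverse TTTATA at -178, counted from the start of the motif to the transcription start, and a CCAAT box read as ATTGG at -229. The Ogn window held TTTATA at -229 and an overlapping TATAAA at -227. TATA motifs of either strand were in 12.4% of all windows and CCAAT boxes in 33.8%. The Omd window held 0 of the 4 motifs. The AP-1 site was in 0 of the member windows and in 6.75% of all windows. These matches describe the letters only, and no binding was measured.

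Bgn, on the X chromosome, encodes biglycan, a class I proteoglycan of bone and connective tissue with chondroitin or dermatan sulfate chains, which also signals through Toll-like receptors when released. Its brightest probe set, 1416405_at, read 10.71, 10.36 and 10.46 in young samples and 10.09, 10.35 and 10.10 in old samples. Young array 2 and old array 2 were 0.01 apart. The difference was -0.33 ± 0.12 (95% confidence interval -0.59 to -0.07) and was not called (limma adjusted p = 0.159). Its other probe sets read alike: 1437889_x_at differed by -0.32 ± 0.11 (adjusted p = 0.146) and 1448323_a_at by -0.43 ± 0.12 (adjusted p = 0.0882). All 3 had every old array below every young array, as 11.3% of all probe sets did. Without young array 2 the brightest probe set differed by -0.40 (adjusted p = 0.0936), and 1448323_a_at then passed the threshold, at -0.52 (adjusted p = 0.0492). It also passed with array weights (-0.45, adjusted p = 0.041).

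The 2 probe sets of Dcn went opposite ways. Dcn encodes decorin, the class I proteoglycan with a single chondroitin or dermatan sulfate chain that decorates collagen fibrils and binds TGF-beta. The bright probe set 1449368_at read 13.59, 13.58 and 13.58 in young and 13.48, 13.47 and 13.41 in old samples. Every old array was lower, but the difference of -0.13 ± 0.07 was not called (95% confidence interval -0.30 to 0.04, limma adjusted p = 0.391). These values lie high on a scale whose highest value on any array was 14.76, so a change may be understated. The dim probe set 1441506_at read 5.99, 6.06 and 5.47 in young and 6.71, 6.50 and 6.60 in old samples. It was called higher in old samples, by 0.76 ± 0.15 or 1.70-fold (limma adjusted p = 0.0295), and is the only member probe set whose mean lies below the median signal of all probe sets, 6.28. That call was lost without young array 1, old array 1, old array 2 or old array 3, with adjusted p from 0.0552 to 0.108. Where this probe set lies in the Dcn transcript is not given in the sources used here, so which of the 2 follows the decorin message was not settled. The mean of both differed by 0.32 and was not called (adjusted p = 0.0863 over genes).

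Among the class II genes other than Omd, none was called. Lum encodes lumican, the keratan sulfate proteoglycan known for corneal transparency. It read 11.43, 11.61 and 11.38 in young and 11.43, 11.71 and 11.32 in old samples on 1423607_at. The groups overlapped fully, with a difference of 0.01 ± 0.12 (95% confidence interval -0.25 to 0.28, limma adjusted p = 0.972). Prelp encodes a proline- and arginine-rich member that binds collagen and heparan sulfate. Its probe set 1416321_s_at read 10.46, 10.43 and 10.71 in young and 10.60, 10.77 and 10.56 in old samples. The difference was 0.11 ± 0.10 (95% confidence interval -0.13 to 0.35, adjusted p = 0.658). That of 1416322_at was 0.21 ± 0.10 (adjusted p = 0.313), and both overlapped between the ages.

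Fmod encodes fibromodulin, which binds the same collagen as lumican and guides cross-linking by lysyl oxidase. Its brightest probe set, 1456084_x_at, read 9.44, 9.41 and 9.63 in young samples and 8.98, 9.63 and 8.95 in old samples. Old array 2 matched the highest young array, and the other old arrays lay below all young arrays. The difference was -0.31 ± 0.17 (95% confidence interval -0.70 to 0.09, limma adjusted p = 0.399). Without old array 2 it was -0.53 and passed the threshold (adjusted p = 0.0468). The 5 other Fmod probe sets differed by -0.28 to -0.09, with adjusted p from 0.25 to 0.813. Old array 2 was the highest of the old arrays on all 6 of them. The suffix x marks probe sets whose probes can match other transcripts, which applies to 5 of the 6.

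Podn, the class V member, encodes podocan, which binds collagen and was first described in the kidney. Its probe set 1435180_at read 7.53, 7.25 and 7.46 in young and 7.43, 7.35 and 7.41 in old samples. The old values lay within the young range. The difference was -0.02 ± 0.09 (95% confidence interval -0.23 to 0.19, limma adjusted p = 0.955), so a change beyond 0.23 in either direction lay outside the interval.

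**Figure D2:**
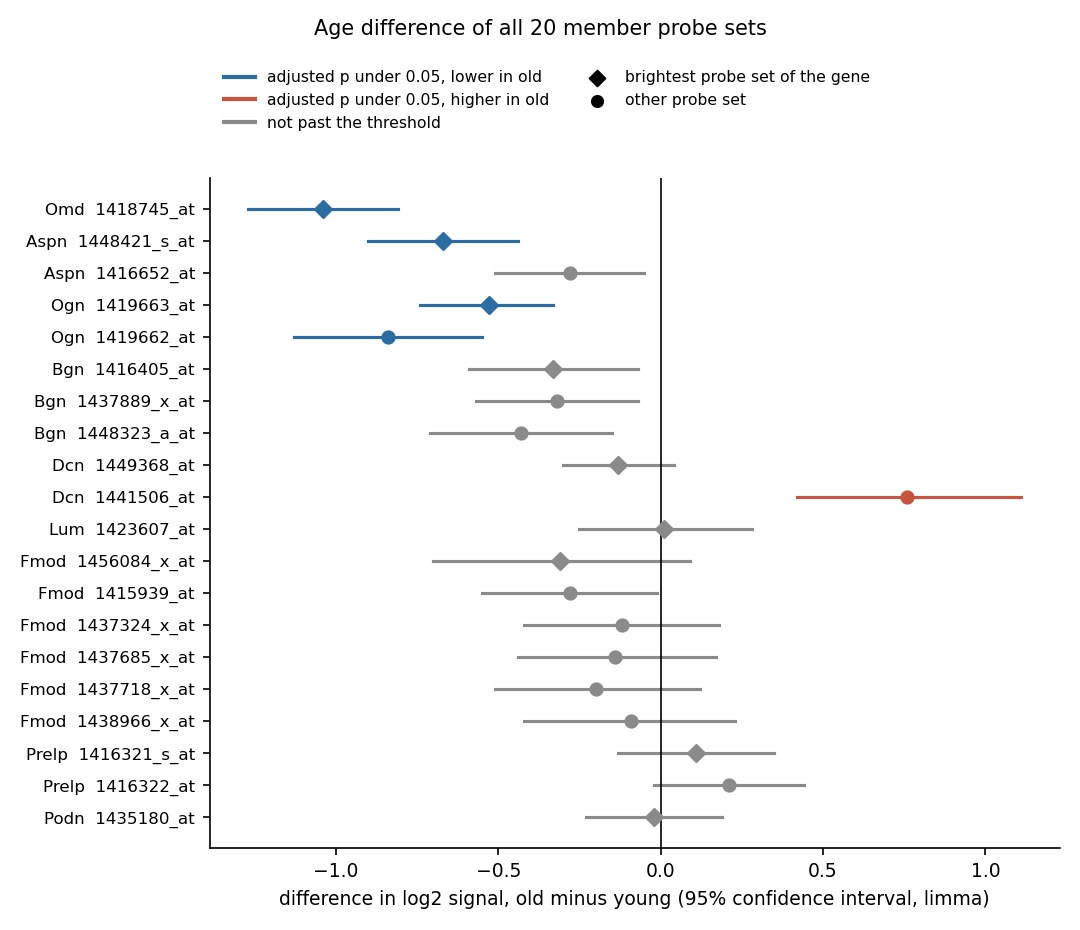
Difference in log2 signal (old minus young) of all 20 member probe sets with 95% confidence intervals from limma, where diamonds mark the brightest probe set of a gene. Omd, Ogn and 1 of 2 Aspn probe sets lie left of 0 and were called lower in old samples, and the dim Dcn probe set, at 0.76, was called higher.

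The changes of the members were then compared with each other, over 36 pairs, by an exact two-sided permutation test over the arrays of the within-array difference. In 18 pairs the 2 ages did not overlap, which gives an exact p = 0.1, the smallest possible with 3 against 3, and 0.2 after Benjamini-Hochberg adjustment over the 36 pairs. No pair can therefore pass 0.05. Of the 18 pairs of a chromosome 13 member with another member, 15 did not overlap between the ages. The chromosome 13 members are the 3 called genes, so the contrast of this count with the next follows from the calls. Of the 15 pairs among the other 6 genes, 2 did not overlap, Bgn against Prelp (-0.44) and Fmod against Prelp (-0.42). Against Podn, for example, Omd moved by -1.03, since Omd minus Podn was 3.46, 3.57 and 3.18 in young samples and 2.36, 2.36 and 2.41 in old samples. Against Lum, Aspn moved by -0.69 and Ogn by -0.55. Among the 3 genes that fell, Omd and Ogn differed by 0.51 without overlap, while Aspn overlapped with both. The share of such pairs among all genes was not computed. The members were also chosen with results of these data known, so these counts are descriptions.

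On chromosome 13 (RefSeq, GRCm38.p6) the order of genes is Ippk, Cenpp, Ecm2, Aspn, Omd, Ogn, Nol8 and Iars. Ecm2, Aspn, Omd and Ogn, all of the leucine-rich family, lie within 120 kb, inside the span of Cenpp, a kinetochore gene on the opposite strand. Ecm2 encodes a class I relative with a von Willebrand domain. It read 6.90, 7.04 and 6.74 in young and 6.30, 6.80 and 6.57 in old samples on 1440096_at. The ages overlapped by 1 old array, and the difference of -0.34 ± 0.14 was not called (limma adjusted p = 0.215). The brightest probe sets of the genes outside the family were not called: Ippk differed by 0.35 ± 0.14 (adjusted p = 0.198), Cenpp by -0.14 ± 0.10 (0.55), Nol8 by 0.20 ± 0.12 (0.444) and Iars by 0.23 ± 0.08 (0.172). Nor were their other probe sets, although 1432361_a_at of Cenpp differed by -0.47 ± 0.12 (adjusted p = 0.0719) with all old arrays below all young arrays. In the other clusters 0 family genes were called by their brightest probe set. On chromosome 10, Dcn and Lum are followed by Kera (0.09 ± 0.13, adjusted p = 0.807) and Epyc, the class III gene epiphycan. Epyc read 12.31, 12.56 and 12.58 in young and 12.43, 12.97 and 12.55 in old samples, a difference of 0.17 ± 0.15 (adjusted p = 0.626). On chromosome 1, Optc (0.03 ± 0.10, adjusted p = 0.925) lies beside Prelp and Fmod. Next to Fmod lies Btg2, an early response gene of no relation to the family. It fell by 1.48 ± 0.26 (adjusted p = 0.0181), a call lost without young array 3, old array 1 or old array 3 (up to 0.0889).

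**Figure D3:**
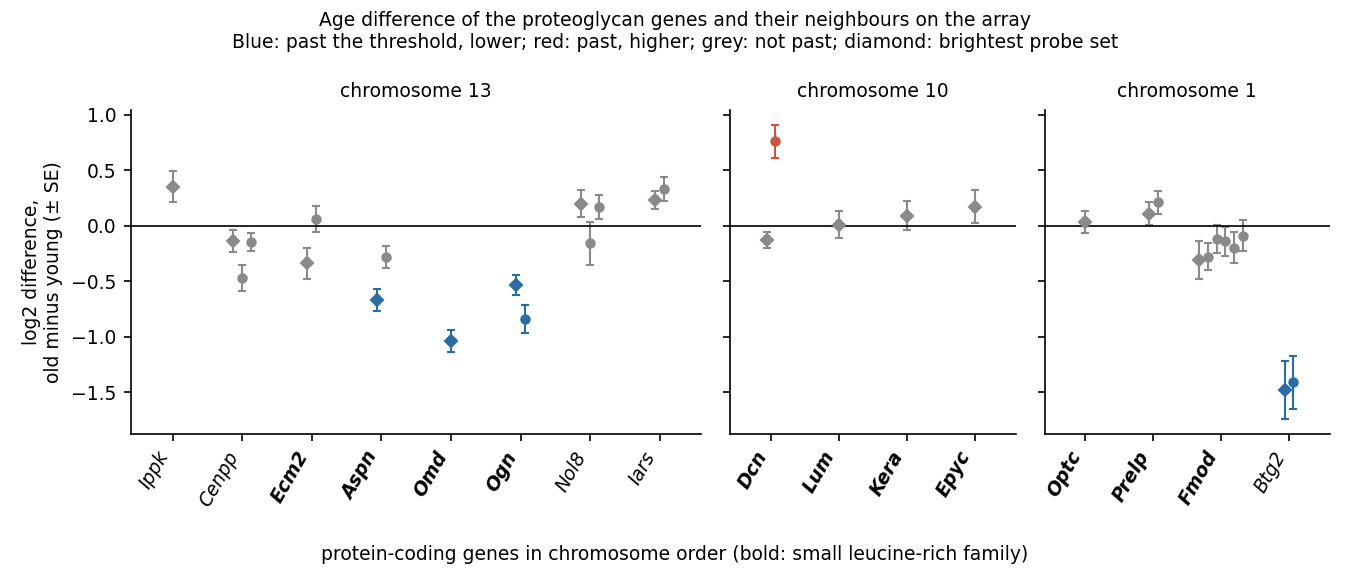
Difference in log2 signal (old minus young, ± SE from limma) of the proteoglycan genes and their neighbours in chromosome order, with every probe set shown and family members in bold. Aspn, Omd and Ogn on chromosome 13 carry the called lower values, from -1.04 to -0.53, and Btg2, outside the family on chromosome 1, lies at -1.48.

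The other relatives that were measured were not called. Of 9 listed, 7 were on the array with a probe set of their own, and 0 passed the limma threshold in either direction, with 3 lower and 0 higher at an unadjusted p under 0.05. At that unadjusted threshold 1315 of all 18193 genes were lower and 2447 higher. The median difference of these relatives was -0.07. The smallest p was that of Chad, chondroadherin, a cartilage member of class IV, which read 7.79, 7.87 and 7.65 in young and 7.36, 7.63 and 7.34 in old samples (-0.33 ± 0.11, adjusted p = 0.126).

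Most enzymes that build the sugar chains of these proteins were not called. Of 21 measured genes of linker, chondroitin and dermatan sulfate synthesis, 1 fell and 0 rose, against 2.33% and 2.45% of all genes, and their median difference was 0.04. The one that fell was Chsy3, a chondroitin synthase, which read 5.02, 6.17 and 5.84 in young and 4.51, 4.39 and 4.39 in old samples (-1.25 ± 0.25, limma adjusted p = 0.0289). That call was lost without young array 3 or any 1 of the old arrays, up to adjusted p = 0.123, and the other Chsy3 probe set differed by -0.07 and was not called. The mean of the called probe set, 5.05, lay below the median signal of all probe sets, 6.28. Of 10 genes of keratan sulfate synthesis 1 fell and 0 rose, against the same shares of all genes, with a median difference of 0.00. It was Chst1, which sulfates the galactose of keratan sulfate chains, the chains carried by Omd, Ogn, Lum and Fmod. Chst1 read 7.18, 7.25 and 6.90 in young and 6.71, 6.62 and 6.51 in old samples (-0.50 ± 0.11, adjusted p = 0.0407). The call survived only the omission of young array 3, with adjusted p up to 0.167 otherwise.

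The collagens to which the proteoglycans bind, and the enzymes that cross-link them, held called genes in 1 direction only. Of 18 fibrillar and fibril-associated collagens 6 fell and 0 rose, against 2.33% and 2.45% of all genes, with a median difference of -0.26. Col1a2, a chain of type I collagen, read 12.27, 11.45 and 11.62 in young and 8.87, 9.73 and 8.67 in old samples (-2.69 ± 0.29, limma adjusted p = 0.00303). Col1a1, the other type I chain, was not called (-0.31 ± 0.22, limma adjusted p = 0.512). It read 6.45, 5.96 and 6.91 in young and 6.12, 6.34 and 5.92 in old samples. The mean of this probe set, 6.28, lay at the median signal of all probe sets, so a change in Col1a1 may be missed. Col5a2, a chain of the type V collagen that starts fibrils, differed by -1.33 ± 0.13 (adjusted p = 0.0023). Col3a1 differed by -1.51 ± 0.23 (adjusted p = 0.0117, and 0.0566 without old array 3). Without single arrays the count of called collagens ranged from 4 to 7, and with the mean of probe sets it was 4. Of 21 fibril assembly and cross-linking genes 4 fell and 0 rose, against the same shares of all genes, with a median of -0.15. Lox, the lysyl oxidase that cross-links collagen, read 10.07, 9.92 and 9.62 in young and 8.44, 8.84 and 8.87 in old samples (-1.15 ± 0.15, adjusted p = 0.00591), and all 3 of its probe sets were called. Loxl1, the related enzyme of elastic fibres, differed by -0.72 ± 0.09 (adjusted p = 0.0061) and Thbs1, a matrix protein that activates TGF-beta, by -0.68 ± 0.11 (adjusted p = 0.0124, and 0.0672 without old array 3). The other Thbs1 probe set differed by -0.26 and was not called. Without old array 3 this list held 2 called genes, and with the mean of probe sets it held 3.

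Of 22 growth factors and signal receptors that bind members of the family, 2 fell and 0 rose, against 2.33% and 2.45% of all genes, with a median of 0.13. At an unadjusted limma p under 0.05, 1315 of all 18193 genes were lower and 2447 higher. In this list 5 were lower and 6 higher. The latter include Tlr4, a Toll-like receptor (0.56 ± 0.14, adjusted p = 0.0577), and Bmp4 (0.59 ± 0.16, adjusted p = 0.0846), both named after their values were seen. Cd14, the co-receptor of Toll-like receptors that binds biglycan, read 8.82, 8.60 and 8.62 in young and 7.74, 7.59 and 7.61 in old samples (-1.03 ± 0.09, limma adjusted p = 0.00181). Ccn4, also called Wisp1, a matrix ligand bound by decorin and biglycan, differed by -0.72 ± 0.12 (adjusted p = 0.0166), a call lost without young array 1 or young array 3 (up to 0.0771). Leaving out single arrays moved this count between 1 and 4, and without young array 2 it was 2 lower and 2 higher. Of 13 proteases that cleave the family 2 fell and 1 rose, against the same shares of all genes, with a median of -0.17. The one that rose was Mmp12, the macrophage elastase, which read 5.06, 4.14 and 4.94 in young and 6.72, 7.69 and 6.54 in old samples (2.27 ± 0.32, adjusted p = 0.00884). Its mean of 5.85 lay below the median signal of all probe sets, 6.28. With dim probe sets left out, the list held 2 called genes, 0 of them higher. Htra1, a serine protease that degrades biglycan, decorin and fibromodulin, read 10.57, 10.32 and 10.55 in young and 9.71, 9.79 and 9.71 in old samples (-0.74 ± 0.09, adjusted p = 0.00515). Adamts5, an aggrecanase that also cleaves biglycan and decorin, differed by -0.85 ± 0.17 (adjusted p = 0.0284), and this call was lost without any 1 array other than old array 2 (up to 0.102). Its 3 other probe sets differed by -0.50 to 0.03 and 0 of them were called, and the mean of its probe sets differed by -0.38 (adjusted p = 0.0566 over genes).

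**Figure D4:**
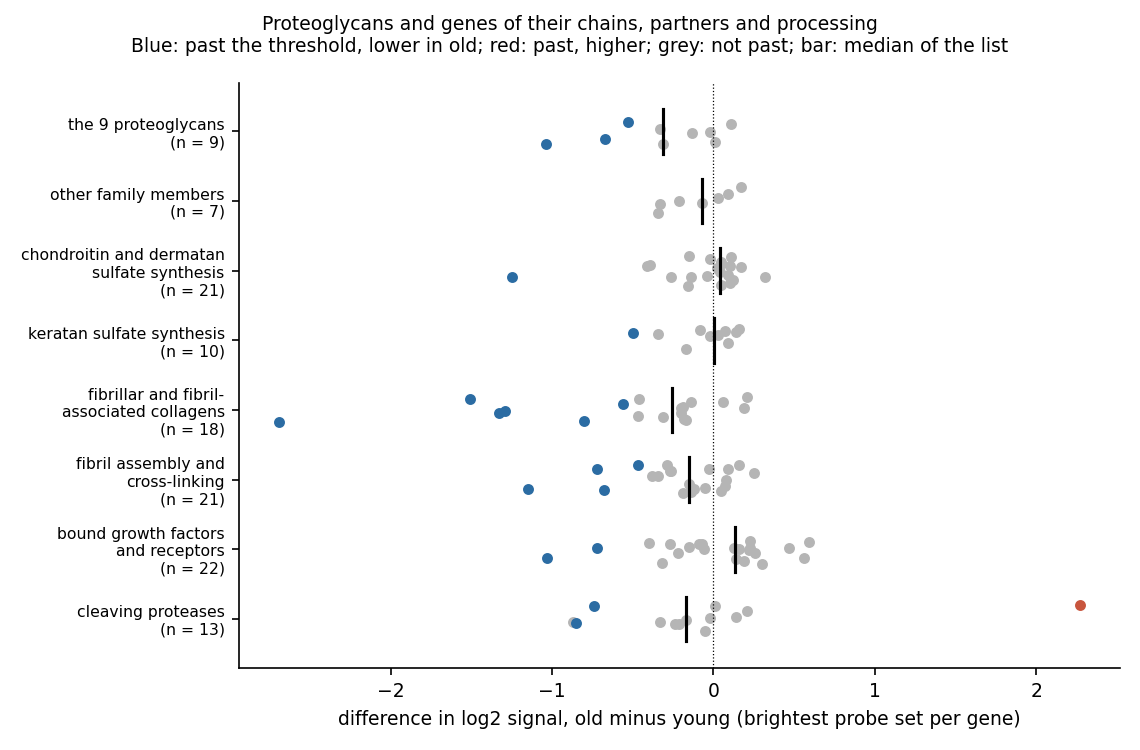
Difference in log2 signal (old minus young) of the brightest probe set of each gene in the proteoglycan list and the lists of relatives, chain synthesis, collagens, cross-linking, bound signals and proteases, with the median of each list as a bar. The medians of the 9 proteoglycans (-0.31) and the 18 collagens (-0.26) lie left of those of the chain synthesis lists (0.04 and 0.00), and Mmp12 stands alone at 2.27.

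Markers of other cell types differed between the ages alongside Omd, Aspn and Ogn, and several of these proteoglycans are also made by bone cells. For the counts below, 2.33% of all 18193 genes were called lower and 2.45% higher. At an unadjusted limma p under 0.05, 1315 of them were lower and 2447 higher. Of 8 measured osteoblast and osteocyte markers 3 fell and 0 rose. Their summed signal ranged from 12.64 to 12.95 on young and from 11.84 to 12.12 on old arrays. Dmp1, an osteocyte matrix protein, read 12.17, 12.18 and 12.39 in young and 11.02, 11.34 and 11.07 in old samples (-1.10 ± 0.11, limma adjusted p = 0.00239). Phex differed by -2.08 ± 0.33 (adjusted p = 0.013) and Mepe by -1.41 ± 0.26 (adjusted p = 0.0232). Phex lost its call without young array 3 (0.0658), its other probe set differed by -0.13 and was not called, and the mean of both differed by -1.10. The call of Mepe was lost without young array 3, old array 1 or old array 3 (up to 0.105). Sp7, the osteoblast transcription factor, was not called (-0.04 ± 0.10, adjusted p = 0.881), nor was Alpl (0.32 ± 0.15, adjusted p = 0.284). Of 9 red cell and marrow myeloid markers 6 fell and 0 rose, at 11.18 to 11.77 in young and 9.57 to 10.55 in old samples. The lowest of these was S100a8, a neutrophil protein (-1.78 ± 0.36, adjusted p = 0.0304, lost without young array 2 or 3 or old array 1 or 3, up to 0.128). Of 10 macrophage markers 0 fell and 3 rose, and their sum went from 12.19 to 12.39 up to 12.98 to 13.13. The called genes were Lyz2, lysozyme (1.56 ± 0.15, adjusted p = 0.00209), Cd68 (1.16 ± 0.11, adjusted p = 0.0023) and Tyrobp (0.67 ± 0.09, adjusted p = 0.00634). The other macrophage markers were not called. Of these Csf1r (-0.08), Mrc1 (-0.32) and Cd163 (-0.33) lay below 0, and Aif1 (0.44), Adgre1 (0.43), Cx3cr1 (0.36) and C1qa (0.16) lay above 0. In the macrophage list 1 gene was lower and 6 higher at an unadjusted limma p under 0.05. The 9 fibroblast markers held 0 called genes, with summed signals of 12.55 to 12.76 and 12.34 to 12.52, and at an unadjusted p under 0.05 3 were lower and 0 higher. Among the remaining lists, 1 of 10 cartilage markers (13.77 to 13.94, then 13.81 to 13.88) and 2 of 10 smooth muscle and pericyte markers (12.58 to 13.02, then 12.52 to 12.61) fell. Of 7 Schwann cell and neuron markers 1 fell and 1 rose (12.70 to 12.86, then 12.65 to 12.75), and 0 of 6 keratinocyte markers were called (9.37 to 9.51, then 9.49 to 9.61), with 2 higher at an unadjusted p under 0.05. The lowest and highest differences within these lists were those of Ibsp (-2.25) and Postn (0.38) for bone, Acan (-0.86) and Sox9 (0.33) for cartilage, and Otos (-0.19) and Gjb2 (0.14) for fibrocytes. They were Ttyh1 (-0.21) and Esrrb (0.39) for the stria, Dpt (-0.38) and Thy1 (0.12) for fibroblasts, and Tagln (-1.23) and Kcnj8 (0.17) for smooth muscle and pericytes. They were Snap25 (-0.72) and Sox10 (0.38) for nerve and Krt5 (-0.06) and Krt1 (0.34) for keratinocytes, and the highest marrow marker was Hba-a1 (-0.01). Of these Acan (limma adjusted p = 0.0371), Tagln (0.00393) and Sox10 (0.0382) were called. The calls of Acan and Sox10 were lost without any 1 array other than young array 2 (adjusted p up to 0.142 and 0.147). The 2 other Sox10 probe sets differed by 0.06 and 0.07 and were not called. The mean over the Sox10 probe sets differed by 0.17 (adjusted p = 0.175 over genes). That of Acta2, the other smooth muscle marker that fell, differed by -0.25 and was not called (0.0753). The summed signal of the 9 proteoglycans themselves went from 14.70 to 14.76 in young to 14.41 to 14.58 in old samples. Dcn, the brightest member, weighs most in that sum. The part of bone, marrow or other cells in the lower Omd, Aspn and Ogn signals was not tested.

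**Figure D5:**
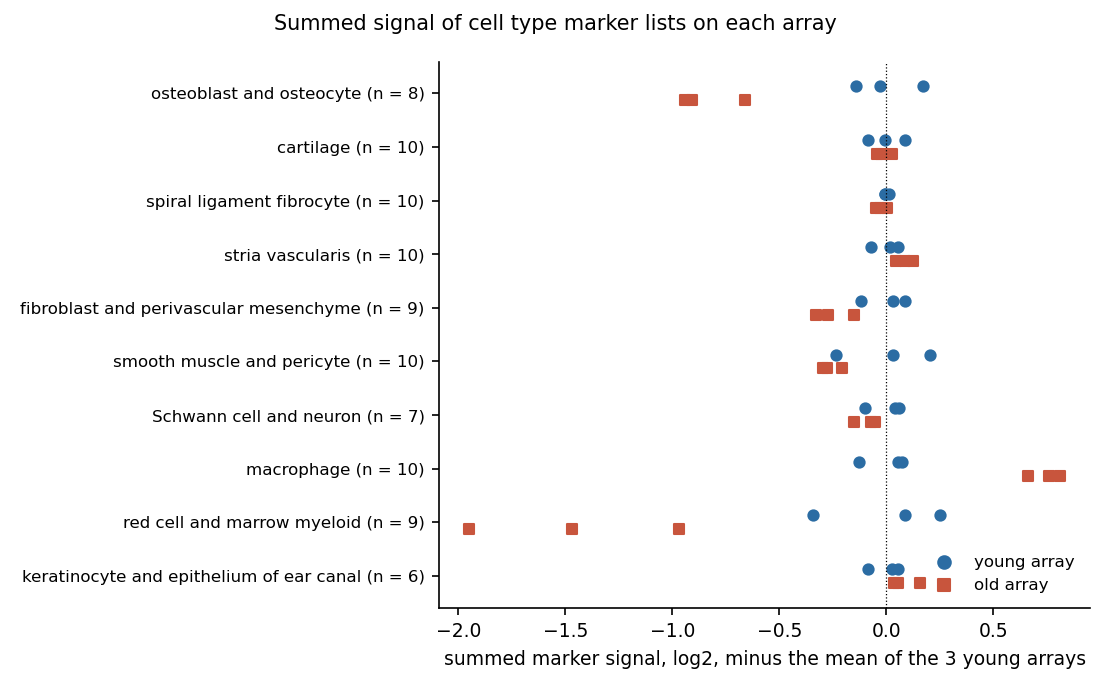
Summed log2 signal of each marker list on each array, minus the mean of the 3 young arrays, with young arrays as blue circles and old arrays as red squares. The bone and the marrow lists lie lower on all 3 old arrays and the macrophage list lies higher, and the fibrocyte list, whose sum is dominated by genes near the top of the scale, lies between 16.89 and 16.95 on all 6 arrays.

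The genes whose profile over the 6 arrays was most like that of Omd and of Aspn, the members with the smallest p, were ranked among 11591 genes above the median signal. The measure was the root mean square difference between log2 profiles, each centred on its own mean, and it includes the age change itself. The nearest to Omd were Agt (0.067), Cd14 (0.076), Gpcpd1 (0.0808), Map7d2 (0.0877) and Usp54 (0.101). Agt read 10.70, 10.46 and 10.30 in young and 9.36, 9.21 and 9.43 in old samples. Of the family, Aspn ranked at place 169 for Omd and Ogn at 184. The nearest to Aspn were Lmcd1 (0.0377), Stim1 (0.0845), Ccnd2 (0.091), Mgp (0.0951) and Ltf (0.0976). Mgp, the matrix Gla protein that inhibits calcification, read 11.87, 11.83 and 11.82 in young and 11.15, 11.35 and 10.97 in old samples. Ogn ranked at place 28 for Aspn, at 0.138, and Omd at 977.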

How the data were processed

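The authors deposited log2 values for 45101 probe sets on 6 arrays, from 100 ng of total RNA labelled with a 3′ kit, per the labels' protocols. Expression Console, RMA and MAS5 appear in the submitters' processing notes, and their roles and versions are not given in the sources used here. Values ran from 2.66 to 14.76. Background and scan batches were not analysed here, and scaling arrays to 1 distribution would hide a shift shared by most genes. With 3 arrays per age, precision is limited.

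After removal of 64 control probe sets, 45037 were fitted on the deposited log2 scale by limma (version 3.58.1, R 4.3.3, lmFit then eBayes without trend or robust options), with age as the only term. The script was checked on simulated arrays. Platform annotation gave a single symbol for 34945 probe sets, several for 932 and none listed for 9160. An adjusted p for a mean over probe sets is over 18193 genes. Summed signals are the log2 of summed unlogged signals.

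The members and lists were chosen with earlier results of these data known. Text names all members, up to 3 called genes per pathway list and direction (or the one with the smallest p), members of marker lists at the extremes, chromosomal neighbours and the 5 genes most like Omd and Aspn. Alternatives were renormalization (quantile, median, cyclic loess), a dim filter, trend and robust variance, array weights, a replicate block, an adjusted p of 0.01, averaged probe sets and each array left out.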

Additional observations from a re-analysis of the deposited data

How the results depend on the processing

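The differences of Omd, Aspn and Ogn kept their sign under every alternative run. At an adjusted p of 0.01, Omd alone stayed called (1 of 9 genes), since Aspn (-0.67, adjusted p = 0.0108) and Ogn (-0.53, adjusted p = 0.0169) lay above it. Leaving out 1 array at a time gave differences of -1.13 to -0.96 for Omd, -0.74 to -0.59 for Aspn, -0.60 to -0.49 for Ogn and -0.53 to -0.19 for Fmod, and 1 to 4 called members. Over all probe sets the main count of 2119 (39.5% higher) became 4480 with array weights (50.6% higher), 436 at 0.01 and 515 to 3393 without single arrays. Over genes, with p-values adjusted again over the 18193 genes (870 were called by adjustment over probe sets), the main count of 885 became 1999, 213 and 244 to 1636. The largest counts without 1 array came without young array 2.

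The short lists moved by few genes. For chondroitin and dermatan sulfate synthesis the count of 1 became 0 without dim probe sets, 2 with trend and robust variance, 3 with array weights, 0 at 0.01 and 0 to 2 without single arrays. For keratan sulfate synthesis the count of 1 became 2 under quantile normalization, cyclic loess, the dim filter, trend and robust variance, array weights and the mean of probe sets, 0 at 0.01 and 0 to 1 without single arrays. For growth factors and receptors the count of 2, both lower, became 5 with trend and robust variance (1 of them higher) or array weights (2 higher), 1 at 0.01 and 1 to 4 without single arrays (2 of the 4 higher), and quantile normalization or the dim filter gave 3 with 1 higher. Cross-linking genes went from 4 to 2 at 0.01 and 2 to 5 without single arrays, collagens to 4 to 7 and proteases to 2 to 3. The cause of these shifts was not tested.

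With the replicate number as a block, 1932 probe sets and 870 genes were called, and Omd (-1.04, adjusted p = 0.00717), Aspn (-0.67, 0.0264) and Ogn (-0.53, 0.0239) stayed the 3 called members. Deviations of same-numbered arrays from their group means correlated at 0.137, 0.0753 and 0.00782, and those of differently numbered arrays at -0.114 to 0.0681. The labels do not state that the numbers pair the arrays, so the main fit had no block. A shared day or batch was not tested. With 3 arrays per age, a member with a confidence interval that spans 0 was not shown to be unchanged.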
